A study of Mus musculus with 6 samples.

Results

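The CXC chemokines are small secreted proteins in which a single residue separates the first pair of cysteines, and 9 of their genes were followed here, of 36047 genes to which transcripts were joined and 20094 genes tested. They were chosen by symbol: Cxcl1, Cxcl2, Cxcl3, Cxcl5, Cxcl9, Cxcl10, Cxcl12, Cxcl14 and Cxcl16. All 9 had at least 10 estimated counts in at least 3 libraries and so entered the test. RNA was taken from infarcted heart tissue of C57BL6 mice aged 12 weeks, 48 h after a coronary artery had been closed for a time and reopened (ischemia/reperfusion). In 3 mice Wnt secretion was blocked with LGK974, written LGK-974 below, a small molecule inhibitor of Porcupine given by mouth, and 3 mice received the vehicle with DMSO. All 6 mice had the same infarct surgery, so no uninjured heart stands beside them, and each library came from 1 mouse.

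Chemokines bind to heparan sulfate on cells and matrix and guide leukocytes along the resulting gradient through receptors coupled to G proteins. Cxcl1, Cxcl2, Cxcl3 and Cxcl5 attract neutrophils through Cxcr2 and are induced by IL-1, TNF and IL-17 through NF-κB, whereas Cxcl9 and Cxcl10 are induced by interferons and attract T and NK cells through Cxcr3. Cxcl12 is made constantly by stromal cells and acts on Cxcr4 and the scavenging receptor Ackr3, Cxcl16 is a membrane-bound ligand of Cxcr6 that the protease Adam10 sheds, and Cxcl14 is a constitutive epithelial and stromal chemokine whose receptor is less settled. In the infarcted heart the first of these groups is known for the early entry of neutrophils and the second for lymphocyte entry.

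The libraries held 46208470 to 80398211 estimated counts with LGK-974 and 41579787 to 48517100 with DMSO, and mitochondrial genes took 28.2 to 53.7% and 39.3 to 42.8% of them. One library stood apart. In DMSO replicate 1, 99.3% of 1501 odorant, pheromone and taste receptor genes, which heart is not known to use, had counts, against 60.4 to 88.5% elsewhere. Per kb of transcript (the mean length of a gene's transcripts, weighted by their counts), these genes had a median of 33.9 counts in that library. In the remaining 5 it was 3.16 to 12.5. Correlations of log2 CPM (counts scaled to a common library size) with DMSO replicate 1 were 0.841 to 0.925, against 0.923 to 0.966 between the others. The fold changes of the chemokines are therefore given with and without that library. Cardiomyocyte markers summed to 18560 to 31790 CPM over the 6 libraries, as heart tissue would give, and which cells made a chemokine was not measured. In whole tissue, fewer cells of a type and less RNA per cell cannot be told apart.

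Of the 9 chemokines, 8 had a log2 fold change above 0 with LGK-974, where 40.5% of all tested genes did, and their median was 0.36 against −0.13 over all tested genes (with counts scaled from TPM, Cxcl2 was below 0 and Cxcl3 above). Cxcl10 differed most and was 3.63-fold higher. Among the members above 0, Cxcl14 and Cxcl16 came next, and Cxcl3 was the only member below 0. In edgeR's quasi-likelihood test, with p-values adjusted by Benjamini-Hochberg over all tested genes, 0 of the 9 had an adjusted p under 0.05, as did 0% of the 20094 genes, whereas DESeq2 called 289 genes, 1.23% of 23567, and none of the 9. At an unadjusted p under 0.05, 3 of the 9 were higher and 0 lower, where 6.26% of all tested genes were higher and 7.18% lower, and the number was 1 without LGK-974 replicate 2 or without DMSO replicate 2. In 2 of the 9, Cxcl10 and Cxcl14, every LGK-974 library lay above every DMSO library, as in 10.7% of all tested genes, and in 0 of the 9 every LGK-974 library lay below, as in 7.27%. An exact permutation test of 3 mice against 3 cannot go below a p of 0.1.

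Without DMSO replicate 1, all 9 log2 fold changes were above 0 and their median was 0.69, while that of all tested genes was −0.02. The share of all tested genes above 0 was not computed for that fit. Then 4 of the 9 (Cxcl1, Cxcl5, Cxcl10 and Cxcl14) were higher at an unadjusted p under 0.05, where 7.12% of 18547 tested genes were, and again none of the 9 was called after adjustment, with 0.0108% of those genes called. With 1 mouse fewer in the control group the comparison rests on 3 mice against 2.

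**Figure D1:**
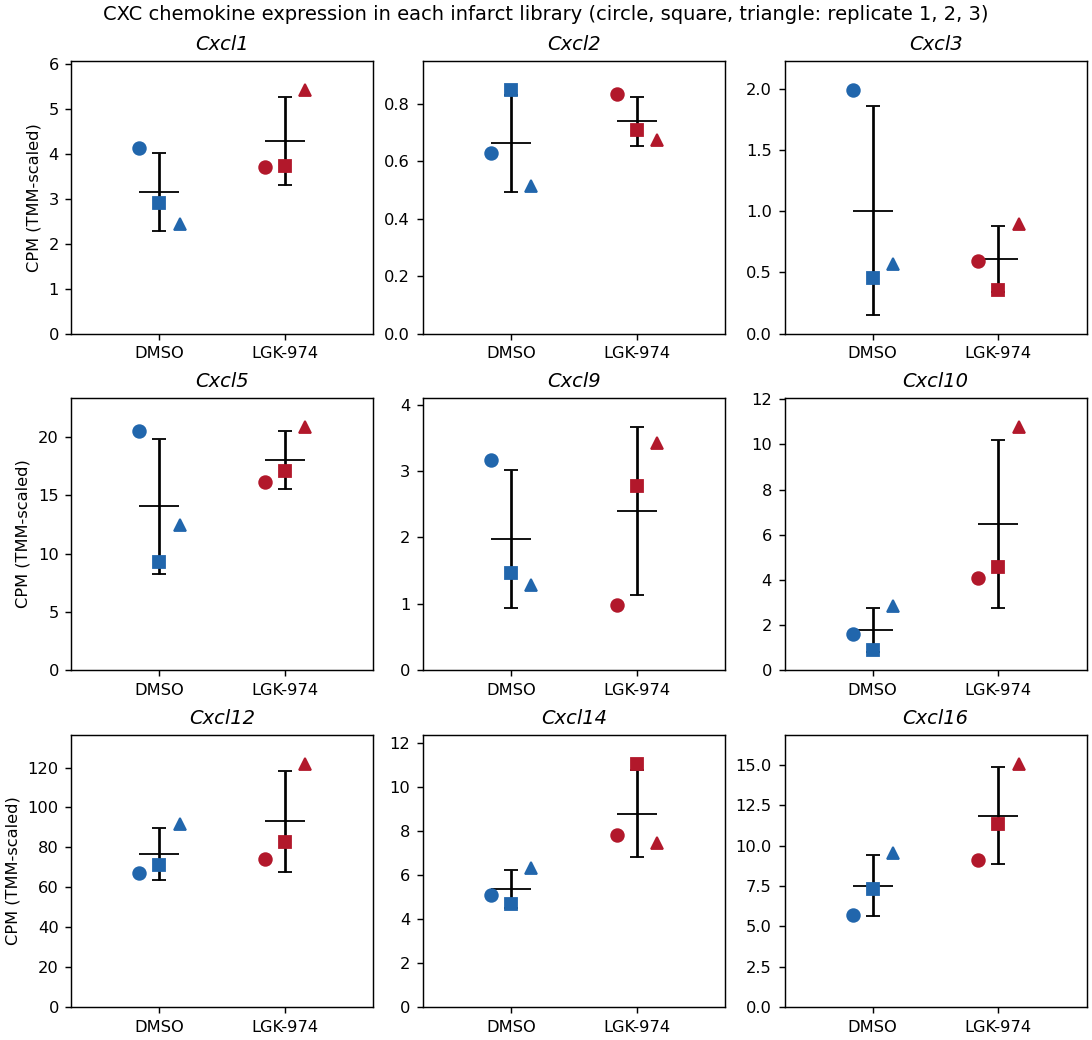
Expression of each CXC chemokine in CPM (vertical axes, linear, from 0) in the DMSO libraries (blue) and the LGK-974 libraries (red), with replicates 1, 2 and 3 as circle, square and triangle, and the mean and SD of 3 mice as black bars. The groups are apart in Cxcl10 and Cxcl14, and in Cxcl1, Cxcl3, Cxcl5 and Cxcl9 the circle of DMSO replicate 1 is the highest of the DMSO libraries.

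The genes for the 4 ligands of Cxcr2 lie in 1 cluster on the plus strand of mouse chromosome 5 (GRCm38), with Ppbp and Pf4 between Cxcl5 and Cxcl3 and Cxcl15 between Cxcl3 and Cxcl1. Cxcl5 runs from 90759360 to 90761624, Cxcl3 from 90786103 to 90789600, Cxcl1 from 90891241 to 90893115 and Cxcl2 from 90903871 to 90905938. All are annotated as protein-coding, and no exon of another gene overlaps theirs. Of their promoters, those of Cxcl1, Cxcl2 and Cxcl3 could be read from RefSeq (GRCm38.p6). The last 120 bases before each start, on the plus strand, are shown because the 3 genes share 1 stretch there, in capitals, which matches the NF-κB consensus on both strands in overlapping positions.
Cxcl1: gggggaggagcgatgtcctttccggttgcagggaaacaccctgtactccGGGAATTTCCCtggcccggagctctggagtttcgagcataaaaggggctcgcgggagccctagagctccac
Cxcl2: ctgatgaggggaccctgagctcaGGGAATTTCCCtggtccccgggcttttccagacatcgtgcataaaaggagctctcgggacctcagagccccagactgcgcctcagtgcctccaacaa
Cxcl3: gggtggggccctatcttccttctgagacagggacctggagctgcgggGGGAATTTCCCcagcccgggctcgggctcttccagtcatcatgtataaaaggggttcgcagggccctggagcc
These windows are chr5:90891125-90891244, chr5:90903779-90903898 and chr5:90785981-90786100. Counted from the RefSeq start, the match on the plus strand begins at position −71 in Cxcl1, −97 in Cxcl2 and −73 in Cxcl3. The RefSeq starts differ from the gene bounds given above, and the windows of Cxcl1 and Cxcl2 end inside those bounds. Over the 250 bases before the start, the NF-κB consensus was matched in 4 of the 7 chemokine promoters with an entry (the fourth was Cxcl10) and in 7.25% of 32851 mouse promoters. Such a match is a description of letters and not a measured site.

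Cxcl5 was the most abundant of the members that bind Cxcr2. It had 16.1, 17.1 and 20.8 CPM with LGK-974 and 20.5, 9.29 and 12.4 CPM with DMSO, in the order of replicates 1 to 3. The groups overlapped only because DMSO replicate 1 lay among the LGK-974 libraries. The means were 18.0 ± 2.49 CPM (SD, n = 3) and 14.1 ± 5.77 CPM (SD, n = 3). The log2 fold change was 0.36 (SE 0.288, edgeR adjusted p = 0.534), and without DMSO replicate 1 it was 0.75 (SE 0.198, with an unadjusted p of 0.00513 and adjusted p = 0.303). Without DMSO replicate 2, the lowest library, it was 0.12, and with counts less background (a subtraction of the receptor gene level) it was 0.17.

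Cxcl1, known in the mouse as KC, had 3.71, 3.73 and 5.42 CPM with LGK-974 and 4.12, 2.90 and 2.43 CPM with DMSO. LGK-974 replicate 3 was the highest library, and DMSO replicate 1 lay above the other LGK-974 libraries. The means were 4.29 ± 0.980 and 3.15 ± 0.873 CPM (SD, n = 3 each), with a log2 fold change of 0.44 (SE 0.317, edgeR adjusted p = 0.493) that became 0.70 (SE 0.284, with an unadjusted p of 0.0375 and adjusted p = 0.424) without DMSO replicate 1. Between 37.6 and 67.9% of its counts were on a transcript annotated as a retained intron, the highest share in DMSO replicate 1.

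Cxcl2, also called MIP-2, was scarce, with 0.836, 0.709 and 0.673 CPM with LGK-974 and 0.628, 0.848 and 0.516 CPM with DMSO, which is 21 to 71 estimated counts a library. The groups overlapped, with a log2 fold change of 0.15 (−0.37 with counts scaled from TPM; SE 0.625, edgeR adjusted p = 0.916) and means of 0.740 ± 0.0857 and 0.664 ± 0.169 CPM (SD, n = 3 each). Without DMSO replicate 1 it was 0.14, and it was 0.04 to 0.36 when any 1 mouse was left out. The counts of Cxcl2 were also divided by transcript. Transcripts not annotated as coding held 9.2, 12.1 and 2.6% of its counts with LGK-974 and 66.4, 47.6 and 36.7% with DMSO, with no overlap between groups (exact permutation test, two-sided, p = 0.1, and 0.9 after Benjamini-Hochberg adjustment over the 9 chemokines). Cxcl2 was the only one of the 9 whose groups were apart in this share, which was lower in every LGK-974 library than in every DMSO library in 7.88% of 11983 tested genes with such counts. On coding transcripts alone, a setting chosen after the data were seen, its log2 fold change was 1.03 (SE 0.791, edgeR adjusted p = 0.512).

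Cxcl3 had 0.589, 0.355 and 0.893 CPM with LGK-974 and 1.99, 0.455 and 0.565 CPM with DMSO. DMSO replicate 1 was the highest library by far, and the remaining DMSO libraries lay within the range of the LGK-974 libraries. The means were 0.612 ± 0.270 and 1.002 ± 0.854 CPM (SD, n = 3 each) and the log2 fold change was −0.71 (SE 0.797, edgeR adjusted p = 0.659). Of the 79.2 estimated counts in DMSO replicate 1, 98.2% were on a retained-intron transcript. With 31.2 counts per kb there, Cxcl3 was at 0.920 times the median of the odorant, pheromone and taste receptor genes of that library. The sign of the difference turned with counts scaled from TPM (0.45), without DMSO replicate 1 (log2 fold change 0.28, SE 0.661) and with coding transcripts only (1.50, SE 1.28), so no direction can be given for Cxcl3.

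**Figure D2:**
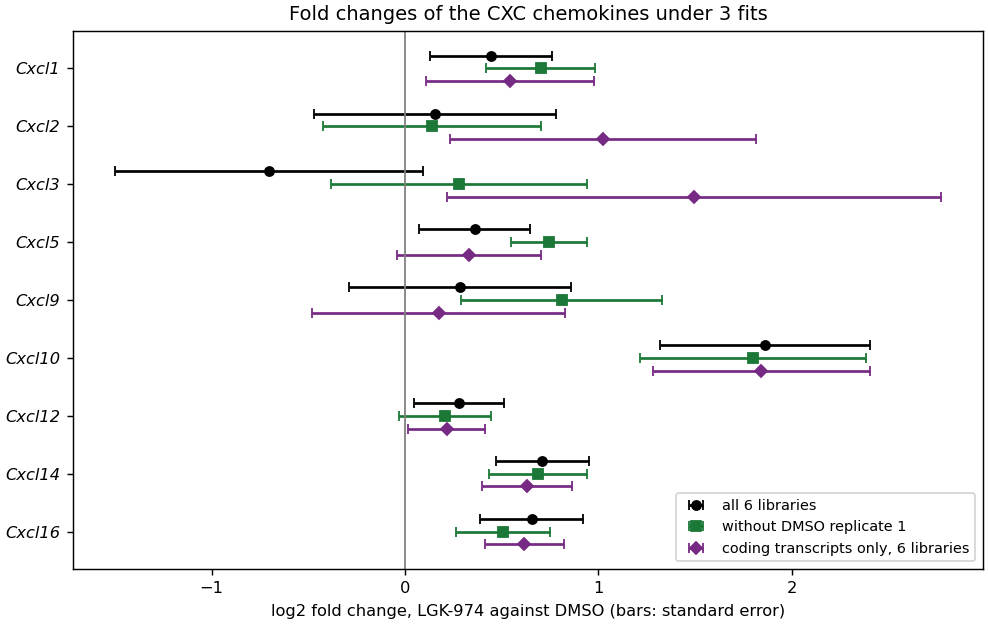
Log2 fold change with LGK-974 relative to DMSO for each CXC chemokine (horizontal axis, bars are standard errors) with all 6 libraries (black), without DMSO replicate 1 (green) and with coding transcripts only (purple). Cxcl10 stayed between 1.80 and 1.86 in these fits, whereas Cxcl3 moved from −0.71 to 0.28 and 1.50.

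The interferon-induced pair lies further along chromosome 5 on the minus strand, Cxcl9 from 92321347 to 92328079 and Cxcl10 from 92346638 to 92348889. Of the exonic bases of Cxcl10, 133 also belong to Art3 on the opposite strand, and whether counting used strand was not given in the sources used here. The 250 bases before the start of Cxcl10 (RefSeq, GRCm38.p6, chr5:92348890-92349139, minus strand) are shown because this gene had the largest difference. Capitals mark, from the left, a match to the core of the interferon-stimulated response element (GAAANNGAAA) and matches to the NF-κB consensus, the last of them overlapping each other.
Cxcl10: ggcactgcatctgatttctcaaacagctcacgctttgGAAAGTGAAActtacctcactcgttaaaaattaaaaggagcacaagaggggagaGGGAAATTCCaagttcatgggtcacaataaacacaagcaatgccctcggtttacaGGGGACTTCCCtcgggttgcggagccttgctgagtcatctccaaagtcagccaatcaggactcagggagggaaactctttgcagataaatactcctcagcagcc
The response element core begins at position −213, and the NF-κB matches begin at −159, −104 and −103. In the same 250 bases, the core was matched on either strand in 2 of the 7 chemokine promoters, Cxcl10 and Cxcl14, and in 2.98% of all 32851. The promoter also held TGAGTCA from −74 to −68, a match to the AP-1 motif TGANTCA, which 6.75% of promoters held. The promoter of Cxcl9 held none of these motifs, nor TTCNNNGAA, a motif of STAT proteins found in 7.02% of promoters.

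Cxcl10 had 4.09, 4.55 and 10.8 CPM with LGK-974 and 1.61, 0.890 and 2.85 CPM with DMSO. Every LGK-974 library was above every DMSO library, and replicate 3 was the highest library in each group. The means were 6.47 ± 3.73 CPM (SD, n = 3) and 1.78 ± 0.991 CPM (SD, n = 3). The log2 fold change was 1.86 (SE 0.542), with an edgeR p of 0.00929, an adjusted p of 0.368 and an adjusted p of 0.0535 in DESeq2. The difference was as large without DMSO replicate 1, at 1.80 (SE 0.587, edgeR adjusted p = 0.351), and lay between 1.34 and 2.49 when any 1 mouse was left out. The exact permutation test gave the smallest p it can, 0.1.

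The counts behind these values were 347, 244 and 688 with LGK-974 and 64, 43 and 116 with DMSO. In DMSO replicate 1 this was 1.53 times the median of the odorant, pheromone and taste receptor genes per kb, in DMSO replicate 2 it was 2.80 times and in DMSO replicate 3 it was 29.8 times, whereas the LGK-974 libraries stood at 24.3, 44.4 and 176 times. That median was highest in DMSO replicates 1 and 2, at 33.9 and 12.5 counts per kb, so these ratios do not give a fold change. Cxcl12 stood at 19.1, 66.3 and 285 times with DMSO and 132, 240 and 593 times with LGK-974. The main coding transcript, Cxcl10-201 with 98 codons, held 86.5 to 89.4% of the counts with LGK-974 and 39.9, 54.2 and 96.7% with DMSO. On that transcript alone, the counts per kb were 274, 195 and 562 against 23.3, 21.3 and 102. These counts are not scaled to library size, so they do not give a fold change. On all coding transcripts together, scaled and in a setting chosen after the data were seen, the log2 fold change was 1.84 (SE 0.561, edgeR adjusted p = 0.310).

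Cxcl9 did not part the groups. It had 0.990, 2.78 and 3.43 CPM with LGK-974 and 3.17, 1.47 and 1.28 CPM with DMSO, so that the lowest library was LGK-974 replicate 1 and the second highest was DMSO replicate 1. The means were 2.40 ± 1.26 and 1.97 ± 1.04 CPM (SD, n = 3 each), with a log2 fold change of 0.28 (SE 0.575, edgeR adjusted p = 0.817) and 0.81 (SE 0.520, edgeR adjusted p = 0.598) without DMSO replicate 1. It was −0.0014 without LGK-974 replicate 3, 0.09 without DMSO replicate 2, 0.17 without DMSO replicate 3, and 0.99 with counts less background. The log2 ratio of Cxcl10 to Cxcl9 within a library was 2.05, 0.712 and 1.65 with LGK-974 and −0.977, −0.723 and 1.16 with DMSO. These overlapped, and the difference of 1.65 gave p = 0.2 in a two-sided exact permutation test, so a greater change of Cxcl10 than of Cxcl9 was not shown.

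**Figure D3:**
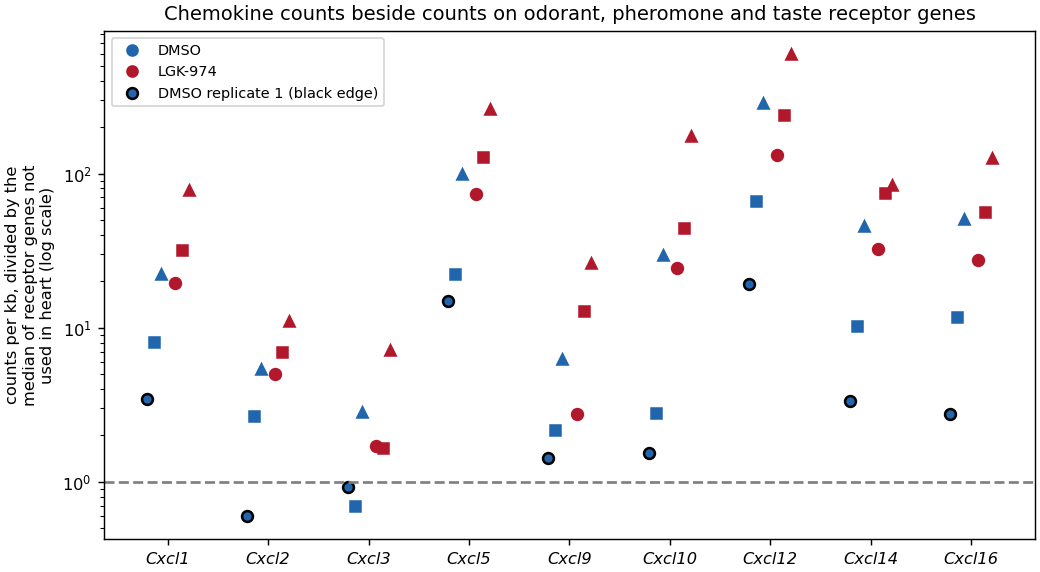
Counts per kb of transcript (count-weighted mean transcript length) of each CXC chemokine divided by the median of 1501 odorant, pheromone and taste receptor genes in the same library (vertical axis, log scale, dashed line at 1), for DMSO (blue) and LGK-974 (red) libraries with replicates 1, 2 and 3 as circle, square and triangle. DMSO replicate 1 (black edge) is the lowest or next to lowest library for every gene, with Cxcl2 at 0.602 and Cxcl3 at 0.920. The receptor gene median was highest in that library, at 33.9 counts per kb, which lowers all of its ratios.

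Cxcl12, the stromal ligand of Cxcr4, was the most abundant member. Its gene lies on the plus strand of chromosome 6 from 117168535 to 117181367. It had 74.4, 82.8 and 122 CPM with LGK-974 and 67.4, 70.9 and 91.5 CPM with DMSO. Replicate 3 was the highest in both groups, and the groups overlapped, with means of 93.0 ± 25.4 and 76.6 ± 13.0 CPM (SD, n = 3 each) and a log2 fold change of 0.28 (SE 0.233, edgeR adjusted p = 0.547). It was 0.21 without DMSO replicate 1, 0.10 without LGK-974 replicate 3 and 0.54 without DMSO replicate 3.

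The 3 coding transcripts of Cxcl12 differ at their end and so in the tail of the protein. Cxcl12-202, with 89 codons, held 24.4, 22.5 and 15.2% of the gene's counts with LGK-974 and 13.3, 16.7 and 16.0% with DMSO. The longest, Cxcl12-201 with 119 codons, held 43.2, 55.1 and 50.2% against 46.2, 58.6 and 52.9%. Cxcl12-203, with 93 codons, took 26.2, 15.3 and 27.2% against 30.6, 18.4 and 23.8%. These are shares of counts, and a longer transcript takes more of them. By TPM, which corrects for length, Cxcl12-202 held 43.1, 42.7 and 29.9% with LGK-974 and 25.9, 33.9 and 31.8% with DMSO, while Cxcl12-201 held 23.6, 32.3 and 30.5% and 27.9, 36.7 and 32.3%. All shares of counts overlapped between the groups, and the differences in their means were 5.37 percentage points for Cxcl12-202, −3.01 for Cxcl12-201 and −1.40 for Cxcl12-203 (exact permutation tests, two-sided, p = 0.3, 0.6 and 0.8, each 0.8 after Benjamini-Hochberg adjustment over the 3). The sign turned for Cxcl12-201 without LGK-974 replicate 1 (0.138) or DMSO replicate 2 (0.000494), and for Cxcl12-203 without LGK-974 replicate 2 (2.38) or DMSO replicate 1 (1.78).

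**Figure D4:**
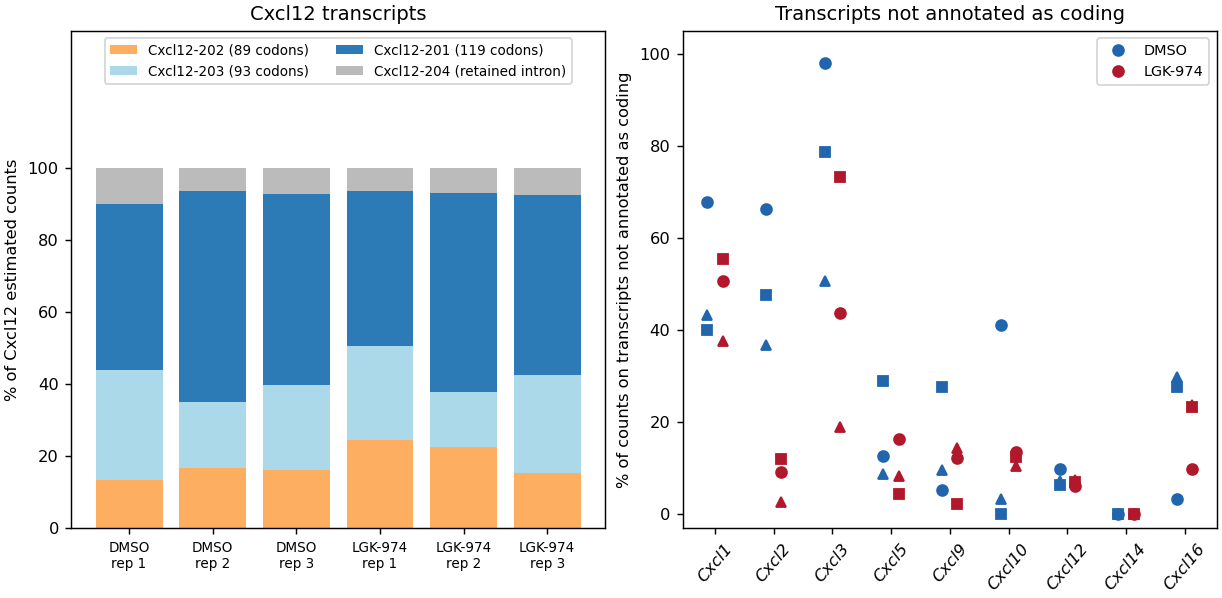
Left, share of the Cxcl12 estimated counts on each transcript in each library, as stacked bars in percent. Right, percent of the counts of each CXC chemokine on transcripts not annotated as coding, for DMSO (blue) and LGK-974 (red) libraries with replicates 1, 2 and 3 as circle, square and triangle. Cxcl12-201, the longest transcript, holds the largest share of Cxcl12 counts in all 6 libraries, which is not so by TPM, and only Cxcl2 has its groups apart on the right.

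Cxcl14 lies on the minus strand of chromosome 13 from 56288643 to 56296551. It had 7.85, 11.1 and 7.47 CPM with LGK-974 and 5.08, 4.70 and 6.34 CPM with DMSO. The groups did not overlap, and here LGK-974 replicate 2 rather than replicate 3 was the highest. The means were 8.79 ± 1.98 and 5.37 ± 0.859 CPM (SD, n = 3 each), with a log2 fold change of 0.71 (SE 0.240, with an unadjusted p of 0.0187 and adjusted p = 0.368) and 0.69 (SE 0.254, edgeR adjusted p = 0.383) without DMSO replicate 1. All of its counts were on coding transcripts, 66.2 to 100% of them on Cxcl14-201 with 99 codons. Its promoter matched the response element core at −172 (GAAACAGAAA) and the STAT motif at −191 (TTCTGAGAA).

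Cxcl16, the membrane-bound ligand, lies on the minus strand of chromosome 11 from 70453983 to 70459984, and 552 of its exonic bases overlap Zmynd15 on the opposite strand. It had 9.12, 11.4 and 15.1 CPM with LGK-974 and 5.73, 7.30 and 9.53 CPM with DMSO. The groups overlapped by 1 pair, LGK-974 replicate 1 against DMSO replicate 3. The means were 11.8 ± 3.01 and 7.52 ± 1.91 CPM (SD, n = 3 each), with a log2 fold change of 0.66 (SE 0.267, with an unadjusted p of 0.0402 and adjusted p = 0.368). Without DMSO replicate 1, the lowest library, it was 0.50 (SE 0.243, edgeR adjusted p = 0.484). The main coding transcript, Cxcl16-201 with 246 codons, held 70.1 to 96.6% of its counts.

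Ranked by mean TPM, which corrects for transcript length, over the 6 libraries, the order was Cxcl12, Cxcl5, Cxcl10, Cxcl16, Cxcl14, Cxcl1, Cxcl9, Cxcl2 and Cxcl3. Cxcl12 had 33.9 ± 21.8 TPM with LGK-974 and 19.5 ± 6.41 with DMSO, and Cxcl5 had 14.5 ± 8.07 and 7.93 ± 1.90 (SD, n = 3). TPM lack the TMM scaling used for CPM, so these means do not give fold changes between the groups. In scaled CPM the log2 fold changes were 0.28 for Cxcl12 and 0.36 for Cxcl5. LGK-974 replicate 3 had the largest TMM factor, 1.4. Its Cxcl12 level was 58.8 TPM, against 24.6 and 18.2 TPM in LGK-974 replicates 1 and 2. The 6-library ranges of all neighbours in this order overlapped. Cxcl12 was nonetheless above Cxcl5, Cxcl5 above Cxcl10 and Cxcl1 above Cxcl9 in 6 of 6 libraries, whereas Cxcl10 was above Cxcl16 in 2 of 6 and Cxcl16 above Cxcl14 in 3 of 6. Cxcl10 had a mean of 8.49 ± 8.23 TPM with LGK-974 and 1.73 ± 1.56 TPM with DMSO. The first of these rests on LGK-974 replicate 3 at 18.0 TPM, since replicates 1 and 2 had 4.16 and 3.33 TPM, below Cxcl14 at 4.86 and 5.23 TPM.

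Of 6 other CXC ligands, all were tested, 2 had a log2 fold change above 0 and none had an unadjusted p under 0.05. Over all tested genes these shares were 40.5% and 13.4%, so neither count sets these ligands apart. Their median was −0.46 against −0.13 over all tested genes. Without DMSO replicate 1, 5 were tested and the median was −0.005. The platelet chemokine Pf4 had 32.4 to 38.7 CPM with LGK-974 and 14.8 to 34.1 with DMSO (log2 fold change 0.65, SE 0.289, edgeR adjusted p = 0.368). Cxcl11, the other interferon-induced ligand of Cxcr3, had 0.407 to 0.933 CPM with LGK-974 and 0.590 to 1.94 with DMSO (−0.95, SE 0.660, edgeR adjusted p = 0.483). Cxcl15, known from lung, had 0.298 to 2.05 CPM with LGK-974 and 0.491 to 3.87 with DMSO (−0.83, SE 0.870, edgeR adjusted p = 0.634). For Cxcl11 and Cxcl15 the highest library was DMSO replicate 1, without which their log2 fold changes were −0.68 and −0.0051, and that of Pf4 was 0.59.

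Of the 8 receptors, 6 passed the filter on low counts. The receptor of Cxcl16, Cxcr6, had 3.55, 2.46 and 4.73 CPM with LGK-974 and 1.78, 1.86 and 2.28 CPM with DMSO, with no overlap and a log2 fold change of 0.86 (SE 0.353, with an unadjusted p of 0.0425 and adjusted p = 0.368). The neutrophil receptor Cxcr2 had 16.8, 12.3 and 12.0 CPM with LGK-974 and 50.3, 16.6 and 17.2 CPM with DMSO. Its log2 fold change of −1.03 (SE 0.432, with an unadjusted p of 0.0459 and adjusted p = 0.368) came with a single high library and was −0.28 without DMSO replicate 1. Ackr3, which removes Cxcl12, had 12.1 to 19.2 CPM with LGK-974 and 13.4 to 24.4 with DMSO (−0.44, SE 0.278, edgeR adjusted p = 0.446, and −0.14 without DMSO replicate 3), and Cxcr4 had 5.51 to 6.51 and 4.07 to 6.51 CPM. Cxcr3, the receptor of Cxcl9 and Cxcl10, was too low to test, with at most 0.172 CPM with LGK-974 and 0.402 CPM with DMSO.

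Cxcl9 and Cxcl10 belong to the genes that interferons induce. Of 18 other genes of interferon signalling and its targets, 16 were tested, and all 16 had a log2 fold change above 0 (15 of 16 without DMSO replicate 1, with a median of 0.47). In the fit of all 6 libraries, 40.5% of all tested genes were above 0, with a median of −0.13. Without DMSO replicate 1 that median was −0.02, and the share above 0 was not computed. The median of the list was 0.51. At an unadjusted p under 0.05, 10 of the 16 were higher, where 6.26% of all tested genes were. The transcription factor Irf7 had 16.0, 18.9 and 32.8 CPM with LGK-974 and 8.82, 9.72 and 8.55 CPM with DMSO (log2 fold change 1.32, SE 0.276, edgeR adjusted p = 0.368, DESeq2 adjusted p = 0.00671). Ifit3, an interferon-induced antiviral protein, had 11.9, 19.9 and 22.6 CPM against 7.41, 7.51 and 8.43 CPM (1.22, SE 0.250, edgeR adjusted p = 0.368, DESeq2 adjusted p = 0.00987). Isg15, an interferon-induced ubiquitin-like protein, had 11.0, 14.4 and 24.8 CPM against 8.02, 6.91 and 6.39 CPM (1.24, SE 0.305, edgeR adjusted p = 0.368, DESeq2 adjusted p = 0.0277). In each of the 3 genes, as in Cxcl10, LGK-974 replicate 3 was the highest library and the groups did not overlap. Every LGK-974 library lay above every DMSO library in 11 of the 16 genes and in 10.7% of all tested genes. The interferon genes themselves, Ifng and Ifnb1, were too low to test, with at most 0.352 and 0.427 CPM, both in DMSO replicate 1.

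Upstream of the Cxcr2 ligands, 17 of 18 genes of the IL-1, TNF and IL-17 signals were tested, with a median log2 fold change of 0.29. At an unadjusted p under 0.05, 5 were higher and 0 lower, where 6.26% and 7.18% of all tested genes were. The IL-1 receptor Il1r1 had 46.8 to 55.7 CPM with LGK-974 and 28.0 to 36.8 with DMSO (0.62, SE 0.165, edgeR adjusted p = 0.368). Il17ra, a chain of the IL-17 receptor, had 14.8 to 24.0 against 11.8 to 12.3 CPM (0.65, SE 0.202), but on coding transcripts only its log2 fold change was 0.0045. Nfkbiz, an inducible nuclear cofactor of NF-κB, had 17.1 to 26.2 against 11.3 to 14.1 CPM (0.64, SE 0.207). On all transcripts, the groups of these 3 genes did not overlap. Every LGK-974 library lay above every DMSO library in 7 of the 17 tested genes and in 10.7% of all tested genes. Without DMSO replicate 1, 6 of 16 tested genes of this list were higher and 1 lower at an unadjusted p under 0.05, with a median of 0.34. Of all genes tested in that fit, 7.12% were higher and 11.0% differed in either direction at this threshold. Of 9 proteases that cut chemokines, 6 were tested, with a median of 0.24. At an unadjusted p under 0.05, where 6.26% of all tested genes were higher, 2 of the 6 were higher. These were Adam10, the sheddase of Cxcl16, at 82.3 to 99.0 against 56.9 to 76.6 CPM (0.47, SE 0.174) and Adam17 at 40.6 to 48.1 against 29.0 to 34.4 CPM (0.46, SE 0.150). Mmp8, the neutrophil collagenase, had 1.55 to 2.68 against 0.683 to 1.89 CPM (1.02, SE 0.531, and 1.63 without DMSO replicate 1). The median of the proteases was 0.20 without that library.

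**Figure D5:**
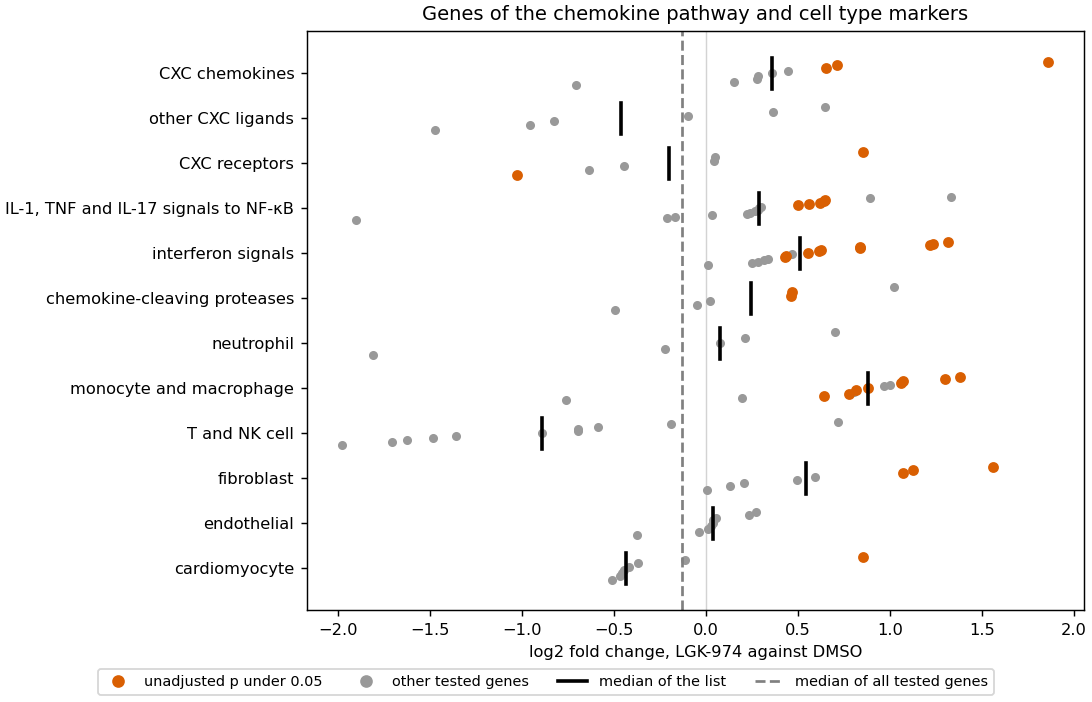
Log2 fold change with LGK-974 relative to DMSO (horizontal axis) for each tested gene of the chemokine pathway lists and the cell type marker lists, with genes at an unadjusted edgeR p under 0.05 in orange, list medians as black bars and the median of all tested genes, −0.13, as a dashed line. The CXC chemokines have a median of 0.36, interferon signals 0.51 and monocyte and macrophage markers 0.88.

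Markers of leukocytes were set beside the chemokines because the tissue is a mixture. For monocytes and macrophages, all 13 markers were tested, and 8 were higher and 0 lower at an unadjusted p under 0.05. Of all tested genes, 6.26% were higher and 7.18% lower. The median was 0.88, and the markers summed to 526 to 593 CPM with LGK-974 against 291 to 364 CPM with DMSO. Cd163 was the only marker with a log2 fold change below 0 (−0.76, SE 0.428), at a mean of 37.6 against 63.7 CPM. The groups overlapped in Cd163, Ccr2, Ly6c2, Cx3cr1 and Plac8. The 3 markers with the smallest p were Lyz2, Adgre1 and Cd68. Lyz2, a macrophage and neutrophil lysozyme, had 164 to 212 CPM against 52.2 to 85.7 (log2 fold change 1.30, SE 0.237, edgeR adjusted p = 0.368, DESeq2 adjusted p = 0.000278). Adgre1 (F4/80) had 24.7 to 27.9 against 11.8 to 17.7 CPM (0.88, SE 0.182) and Cd68 had 71.7 to 98.1 against 28.2 to 47.3 CPM (1.06, SE 0.236). Fibroblast markers had a median of 0.54 and summed to 2222 to 3886 against 1194 to 1729 CPM. At an unadjusted p under 0.05, where 6.26% of all tested genes were higher, 3 of 8 were higher. The 3 were the matrix genes Col1a1, Col1a2 and Postn, which made up most of the sum, whereas Dcn had a mean of 332 against 331 CPM and Pdgfra 80.8 against 73.9 CPM. Without DMSO replicate 1 the medians were 0.88 for the macrophage list and 0.37 for the fibroblast list. Both sums were higher with LGK-974, as were the means of all the chemokines but Cxcl3. The part of these cells in the differences of the chemokines was not tested.

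Neutrophils and lymphocytes are the cells that most of these chemokines attract. Of 10 neutrophil markers, 5 were tested, none at an unadjusted p under 0.05, and the list summed to 19.8 to 28.4 CPM with LGK-974 and 24.4 to 30.9 CPM with DMSO. The defining marker Ly6g was at 0 in 3 of 6 libraries and at most 0.377 CPM in the others, whereas Csf3r had 11.7 to 18.8 CPM with LGK-974 and 15.4 to 17.2 with DMSO (−0.22, SE 0.216), Cd177 had 0.746 to 1.75 and 0.246 to 1.26 CPM (0.70, SE 0.715, and 1.22 without DMSO replicate 1), and Stfa2l1 had 0.0939 to 0.118 and 0.196 to 0.603 CPM (−1.81, SE 0.963). Of 12 T and NK cell markers, 11 were tested, none at an unadjusted p under 0.05. Their median was −0.89, and −0.18 without DMSO replicate 1, in which they summed to 60.0 CPM against 22.5 to 26.0 CPM with LGK-974. The remaining lists (B cell, endothelial, mural, cardiomyocyte, platelet, epicardial and mesothelial) had medians from −0.55 to 0.04. Their summed levels overlapped between the groups. At an unadjusted p under 0.05, 1 gene was higher (Actc1, cardiac actin) and 1 lower (Gp6, a platelet collagen receptor). Of all tested genes, 6.26% were higher and 7.18% lower.

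By Pearson's r of log2 CPM over the 6 libraries, the genes most like Cxcl10 were Crcp (0.994), Vcpkmt (0.989), Rtkn (0.989), Lcat (0.987) and Ahsa1 (0.987). With 6 libraries and 20094 genes to choose from, these values describe the ranking only. Crcp had 9.13, 9.48 and 11.5 CPM with LGK-974 and 6.84, 5.83 and 8.47 CPM with DMSO, the same order of libraries as Cxcl10.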

How the data were processed

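RNA of infarct tissue was sequenced from 3 mice with LGK-974 and 3 with DMSO. Per the labels, groups and replicate numbers are those of the sample titles. The labels name both ribosomal RNA depletion and a capture kit for coding RNA, and whether both were used for each library was not checked. The authors ran Kallisto (version not given in the sources used here) against an Ensembl index of GRCm38, which divides a read among transcripts it matches. They deposited, for 118489 transcripts, estimated counts and TPM values. TPM values, scaled by the authors to transcript length and library, were used for levels between genes and for 1 alternative.

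Estimated counts were joined to genes by GENCODE (98.6% of transcripts), summed and rounded. Reads divided between near-identical genes or overlapping transcripts stay divided, so low genes with close paralogs are uncertain. The main test was the quasi-likelihood test of edgeR 4.0.16 (R 4.3.3) with TMM scaling, a minimum of 10 counts in 3 or more samples, treatment alone in the model and a Benjamini-Hochberg threshold of 0.05. CPM are TMM-scaled. DESeq2 1.42.0, limma-voom, other filters and scalings, counts less background, a replicate block and leaving out each mouse were alternatives. Background was the median count per kb of receptor families that heart is not known to use, subtracted per kb of transcript. The length of a gene was the mean of its transcripts, weighted by their counts over all libraries. Exact permutation tests were two-sided over all splits of the mice. Tests were tested on simulated data. Depth was 41579787 to 80398211 estimated counts a library, and the number of mice limited the precision.

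The chemokines and the gene lists were chosen with earlier results of these data known. Named genes were all 9 chemokines, the 3 genes with the smallest p of each pathway list and of the neutrophil and macrophage lists, and the 5 genes most like the chemokine with the smallest p. Other genes (Cxcr3, Cxcr4, Ifng, Ifnb1, Ly6g, Actc1, Gp6, Ppbp, Col1a1, Col1a2, Postn, Dcn, Pdgfra, Cd163, Ccr2, Ly6c2, Cx3cr1, Plac8) were named after their values were seen. Promoters came from RefSeq, which matched 7 of the 9 (not Cxcl5 and Cxcl16), and motifs were searched on both strands in the 250 bases before the start. Tables were made in Python 3.11.15 with pandas 2.3.3, and permutation tests with NumPy 2.4.6.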

Additional observations from a re-analysis of the deposited data

How the results depend on the processing

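The count of genes called after adjustment, 0 of 20094 in edgeR's quasi-likelihood test (2699 at an unadjusted p under 0.05), was 289 with DESeq2, 1206 with edgeR and no filter on low counts, 324 with DESeq2 without DMSO replicate 1 (chosen after seeing the data), and 0 to 2 when each mouse was left out, the 2 without DMSO replicate 1. Of the 9 chemokines, 1 (Cxcl10, adjusted p = 8.46e-05) was called with no filter, and 0 in every other alternative. The number at an unadjusted p under 0.05 was 1 to 4 when each mouse was left out, against 3. Cxcl10, Cxcl1, Cxcl5, Cxcl12, Cxcl14 and Cxcl16 stayed above 0 in all alternatives, Cxcl10 from 1.34 to 2.49. The log2 fold change of Cxcl2 was −0.37 with counts scaled from TPM. That of Cxcl3 was 0.45 with counts scaled from TPM, 1.60 with counts less background, 1.50 with coding transcripts only (chosen after seeing the data), 0.27 with DESeq2 without DMSO replicate 1, and −1.08 to 0.28 when each mouse was left out. When each mouse was left out, Cxcl9 ranged from −0.0014 without LGK-974 replicate 3 to 0.81 (0.99 with counts less background), Cxcl5 from 0.12 to 0.75 and Cxcl12 from 0.10 to 0.54. Il17ra was 0.0045 on coding transcripts only, and Csf3r was 0.12 with counts scaled from TPM. The share differences of the Cxcl12 transcripts, when each mouse was left out, ranged from −6.19 to 0.138 percentage points for Cxcl12-201, 3.54 to 8.10 for Cxcl12-202 and −4.34 to 2.38 for Cxcl12-203. The cause of these changes was not tested. The median log2 fold change of all genes, −0.13, was −0.75 over the genes DESeq2 tested and −0.55 with no filter, both of which add low genes.

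The replicate numbers share only a number. Deviations of same-numbered mice correlated at −0.048 to 0.475, over 0.1 in 2 of 3 pairs, and 4 of 6 libraries correlated best with their own number. With the replicate block 0 genes were called, and Cxcl10 had an adjusted p of 0.120. Cxcl2 and Cxcl3 had the fewest counts of the 9 and the largest standard errors, 0.625 and 0.797.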
